A study of Mus musculus with 21 samples.

Results

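The metallothioneins examined here were Mt1, Mt2 and Mt3, chosen by name as the members of the mouse family with a row in the deposited table, and so 3 of its 16318 genes. All 3 passed the low-count filter, which kept 16303 genes, and Mt4, the remaining member of the cluster, has 0 rows in the table. They were measured by RNA-seq of whole brains from 21 SAMP8 mice, a senescence-accelerated strain with no engineered allele named in the labels. Mice were dosed subcutaneously every other day for 8 weeks, from 4 to 6 months of age, and were perfused with phosphate-buffered saline (PBS) before the brain was taken. The treated group received HsTX1[R14A] (spelled HxTX1[R14A] in the sample titles), a peptide that blocks the potassium channel Kv1.3, at 1 mg/kg, and comprised 3 females and 6 males. The control group received PBS and comprised 6 females and 6 males. Each library came from 1 mouse, so the spread within a group is that between animals.

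Metallothioneins are small cytosolic proteins whose many cysteines hold zinc and copper, and they buffer these metals and scavenge oxidants. Mt1 and Mt2 are made in most tissues, and in the brain mainly in astrocytes. Their transcription is driven by zinc through the metal-sensing factor MTF1, and also by glucocorticoids, STAT3 and oxidative stress. Mt3, first described as growth inhibitory factor, is made chiefly in the brain and responds little to metals. A whole brain holds all its cell types, so fewer cells of a type and less RNA per cell cannot be told apart in these libraries.

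The 3 genes lie side by side on the plus strand of chromosome 8 (GRCm38) and are annotated as protein-coding. Mt3 (ENSMUSG00000031760) spans chr8:94152607-94154146, Mt2 (ENSMUSG00000031762) spans chr8:94172664-94173568, and Mt1 (ENSMUSG00000031765) spans chr8:94179082-94180327. Each has 3 exons in the transcript listed first in GENCODE, all of them holding coding sequence. The coding sequences are shown from start to stop codon because they carry the shared feature of the family, the cysteine codons, which are in capitals, and because their likeness bears on how reads are assigned. They come from GENCODE transcripts of GRCm38, and their spans on chromosome 8, introns included, are 94179311 to 94180193 for Mt1, 94172848 to 94173427 for Mt2 and 94152800 to 94154010 for Mt3.
Mt1: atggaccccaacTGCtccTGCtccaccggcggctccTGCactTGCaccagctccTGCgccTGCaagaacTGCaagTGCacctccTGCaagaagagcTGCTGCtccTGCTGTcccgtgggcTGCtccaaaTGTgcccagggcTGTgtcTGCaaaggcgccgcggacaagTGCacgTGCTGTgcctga
Mt2: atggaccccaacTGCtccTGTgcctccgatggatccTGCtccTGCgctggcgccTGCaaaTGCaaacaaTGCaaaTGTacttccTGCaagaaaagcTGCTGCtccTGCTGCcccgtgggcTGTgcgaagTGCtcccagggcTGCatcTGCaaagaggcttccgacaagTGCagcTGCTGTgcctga
Mt3: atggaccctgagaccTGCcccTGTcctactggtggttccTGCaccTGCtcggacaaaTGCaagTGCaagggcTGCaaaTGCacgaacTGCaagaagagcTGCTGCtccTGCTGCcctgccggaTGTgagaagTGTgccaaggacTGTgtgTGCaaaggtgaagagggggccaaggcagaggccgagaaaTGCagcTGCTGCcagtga
Each of the 3 sequences holds 20 cysteine codons. These make up 32.8% of the codons before the stop in Mt1 and in Mt2, which are both 186 bases long, and 29.4% in Mt3, which is 207 bases long. Lysine codons numbered 7, 8 and 11 in Mt1, Mt2 and Mt3. Over aligned bases, Mt1 and Mt2 were 79.6% identical with 0 gap bases, Mt1 and Mt3 were 73.7% identical and Mt2 and Mt3 were 75.3% identical, both with 21 gap bases in Mt1 or Mt2. Deposited counts of all 3 genes were whole numbers in every library, so no fractional assignment of reads between them is visible in the values.

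The metal response element (MRE), to which MTF1 binds, has the core TGCACNC or TGCGCNC, where N is any base. Both strands of the 250 bases before the RefSeq start of each gene (GRCm38.p6) were searched, and the windows of Mt1 and Mt2, the metal-induced pair, are shown with the cores in capitals. The Mt1 window is chr8:94178839-94179088 and the Mt2 window is chr8:94172368-94172617, both on the plus strand.
Mt1 upstream: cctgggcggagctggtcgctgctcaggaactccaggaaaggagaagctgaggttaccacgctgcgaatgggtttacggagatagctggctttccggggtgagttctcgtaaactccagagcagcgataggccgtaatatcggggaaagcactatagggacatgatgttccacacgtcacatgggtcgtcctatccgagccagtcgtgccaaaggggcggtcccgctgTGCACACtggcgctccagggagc
Mt2 upstream: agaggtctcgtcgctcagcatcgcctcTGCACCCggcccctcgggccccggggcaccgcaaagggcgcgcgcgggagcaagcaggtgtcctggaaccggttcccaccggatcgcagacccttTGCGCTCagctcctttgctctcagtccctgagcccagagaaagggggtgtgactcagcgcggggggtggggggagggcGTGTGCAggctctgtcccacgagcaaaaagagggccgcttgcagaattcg
The Mt2 window holds 3 cores, at -223, -128 and -50 from the start. The Mt1 window holds 1, at -23, and 4 more lie after that RefSeq start, at 94179091, 94179109, 94179173 and 94179187, in the first exon of the Mt1 transcript that starts farthest upstream, and upstream of the starts of the other two GENCODE transcripts of Mt1 at 94179211 and 94179241. The Mt3 window holds 0. Among 32851 RefSeq windows of the same length, 21.4% hold at least 1 core and 1.26% hold at least 3. The antioxidant response element core, TGACNNNGC, was found once, in the Mt2 window at -79, and 10.2% of all windows hold it. A match describes letters in a window and not a bound site.

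Library totals ran from 14917174 to 47613792 counts, and the labelled sex went against sex-linked genes in 0 libraries. Transcripts of neurons, astrocytes, oligodendrocytes and microglia were present in every brain. The share of a library taken by short transcripts differed between mice. This was measured as the length slope, the slope of each gene's log2 CPM (counts relative to its library's total after TMM scaling), centred on its mean over all mice, on the log2 length of its longest transcript. PBS mice had a slope of -0.076 ± 0.161 (SD, n = 12) and HsTX1[R14A] mice one of 0.102 ± 0.119 (SD, n = 9), so short transcripts took a smaller share of the treated libraries. The library names also came in 2 forms, of which the more common was carried by 10 PBS and 5 treated mice, and the less common by 2 and 4. What the forms stand for is not stated.

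Metallothionein mRNA was abundant in these brains. The 3 genes together took between 0.0442% and 0.0942% of all counts, and the lowest count of any of them in any mouse was 1234, so differences between animals outweighed read sampling in their precision. Levels of different genes were compared per kilobase of longest transcript. Over all mice, Mt3 stood at 649 ± 218 CPM per kilobase, Mt2 at 213 ± 50.2 and Mt1 at 191 ± 36.9 (SD, n = 21). Among 14569 nuclear protein-coding genes, Mt3 ranked 23rd by this level, Mt2 ranked 180th and Mt1 ranked 204th. Mt3 was highest in all 21 mice. Mt2 exceeded Mt1 in 18 mice and Mt1 exceeded Mt2 in 3, and this order rested on the gene model: the longest Mt1 transcript has 1085 bases against 511 for Mt2 and 536 for Mt3, and with the median transcript length of each gene Mt1 exceeded Mt2 in all 21 mice. The neighbouring levels of Mt1 and Mt2 are therefore not ordered by these data.

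All 3 metallothioneins were lower in the brains of HsTX1[R14A]-treated mice. Mt2, induced by zinc through MTF1, had the smallest p-value of the 3. In PBS mice its level ran from 93.6 to 154 CPM with a median of 110.4 in the 6 females, and from 104 to 165 CPM with a median of 129 in the 6 males. In HsTX1[R14A] mice it was 83.9, 82.9 and 82.2 CPM in females 71, 72 and 98, and ran from 73.1 to 109 CPM with a median of 90.5 in the 6 males. All 9 treated mice were below the PBS median and 7 were below the lowest PBS mouse, while 8 of the 12 PBS mice were above the highest treated mouse. The group means were 124 ± 22.3 CPM (SD, n = 12) and 88.3 ± 11.9 CPM (SD, n = 9). The log2 fold change (treated over PBS) was -0.51 (standard error 0.10, 95% interval -0.72 to -0.31, adjusted p = 0.0151, edgeR quasi-likelihood test, Benjamini-Hochberg over all genes), a level 30% lower.

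Mt1, whose gene stands next to that of Mt2 and shares its metal control, had a smaller estimate. It ran from 185 to 281 CPM with a median of 208 in PBS females and from 171 to 290.2 CPM with a median of 233 in PBS males. Treated females had 166, 164 and 149 CPM, and treated males ran from 157 to 229 CPM with a median of 191. The treatments overlapped more than for Mt2: 8 of 9 treated mice were below the PBS median, 4 were below the lowest PBS mouse, and 4 of 12 PBS mice were above the highest treated one. Mean levels were 226 ± 37.9 CPM (SD, n = 12) with PBS and 181 ± 26.3 CPM (SD, n = 9) with the peptide. The log2 fold change was -0.36 (standard error 0.10, 95% interval -0.56 to -0.16, adjusted p = 0.018, edgeR), a level 22% lower.

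Mt3, the brain form, showed the widest spread between mice. Its level ran from 256 to 619.9 CPM with a median of 378 in PBS females and from 270.35 to 579 CPM with a median of 396 in PBS males. Treated females had 231, 295 and 188 CPM, and treated males ran from 231 to 438 CPM with a median of 266. Here 8 of 9 treated mice were below the PBS median and 5 were below the lowest PBS mouse, and treated male 93, at 438 CPM, lay above the PBS median. Group means were 403.5 ± 116 CPM (SD, n = 12) against 274 ± 70.7 CPM (SD, n = 9). The log2 fold change was -0.59 (standard error 0.17, 95% interval -0.94 to -0.24, adjusted p = 0.0201, edgeR), a level 33.5% lower.

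**Figure D1:**
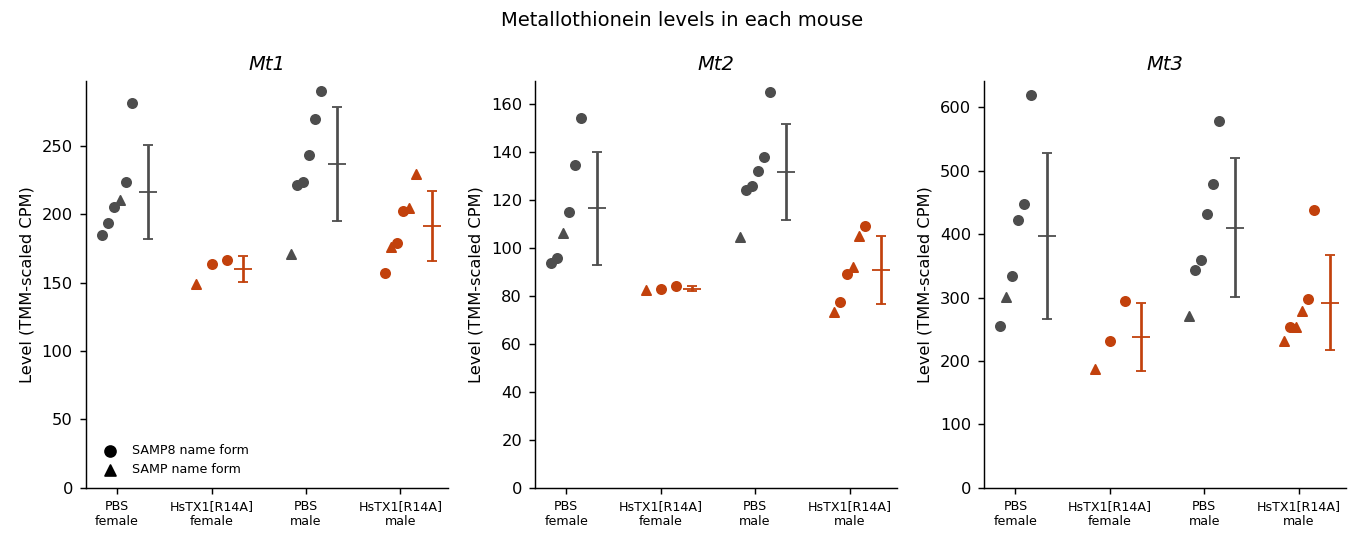
Level of Mt1, Mt2 and Mt3 in each of the 21 mice, as TMM-scaled CPM, by treatment and sex; each point is a mouse, triangles mark the less common form of library name, and bars give the mean and SD of each group. For Mt2, 7 of 9 HsTX1[R14A] mice lie below the lowest PBS mouse, against 4 of 9 for Mt1 and 5 of 9 for Mt3.

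These calls stand against a broad background. Of 16303 genes tested, 31.6% were called between the treatments, 16.1% lower and 15.5% higher. With upper quartile scaling in place of TMM, 69.2% of the called genes were lower against 50.9% here, and the 3 metallothioneins stayed lower. By p-value Mt2 ranked 34th of all genes, Mt1 ranked 1029th and Mt3 ranked 1560th. Short transcripts fell as a class. Among the 679 nuclear protein-coding genes whose longest transcript is no longer than the 1085 bases of Mt1, 48.3% were called lower, 3 genes were called higher and the median log2 fold change was -0.45, against -0.01 over all genes tested. Within this class 63.6% of genes had a more negative log2 fold change than Mt1, 38.6% than Mt2 and 25.9% than Mt3. Among the 52 genes with transcripts of up to 536 bases, the length of Mt3, the median was -0.61 and 28 were called lower. Of these 52 genes, 84.6% had a more negative log2 fold change than Mt1, 61.5% than Mt2 and 51.9% than Mt3. By longest transcript, all 3 metallothioneins lay within the quartiles of genes in their length class. For Mt1 this rested on the gene model. Its transcript with the coding sequence shown above has 549 bases, and genes of up to 700 bases had quartiles of -0.697 and -0.413. Mt1, at -0.36, fell less than that range.

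**Figure D2:**
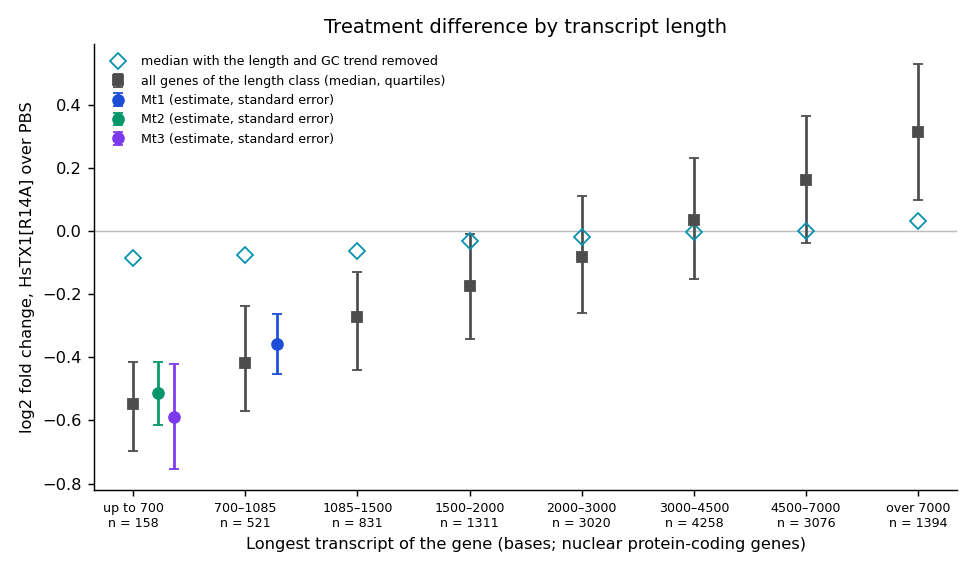
log2 fold change (treated over PBS) by length of the longest transcript, with medians and quartiles of nuclear protein-coding genes in each length class, the same medians after the length and GC trend of each library is removed, and the estimates of Mt1, Mt2 and Mt3 with standard errors beside their class. The median rises from -0.55 in genes of up to 700 bases to 0.32 in genes over 7000 bases. All 3 metallothioneins lie within the quartiles of their class by longest transcript, which for Mt1 depends on the transcript taken.

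When each library's trend of counts on transcript length and GC content was removed, the differences shrank. The log2 fold change became -0.08 for Mt1 (adjusted p = 0.596, edgeR), -0.09 for Mt2 (adjusted p = 0.326) and -0.26 for Mt3 (adjusted p = 0.0529), with 6.37% of all genes called lower and 8.96% higher in that fit. In PBS mice the level of Mt2 then rose with the slope by r and did not pass by rho (r = 0.725, permutation p = 0.00737, adjusted p = 0.0221; rho = 0.51, permutation p = 0.0941, adjusted p = 0.188). Without the 2 mice farthest from the median slope, this r was 0.486. Mt3 still fell with the slope without passing (r = -0.524, permutation adjusted p = 0.159; rho = -0.65, permutation adjusted p = 0.0782), and Mt1 gave r = 0.484 (permutation adjusted p = 0.168). Treated mice had the higher mean slope. Whether the removal went past the trend for Mt1 and Mt2, or stopped short of it for Mt3, was not tested. The same test with the slope as a covariate gave -0.27, -0.25 and -0.11 (adjusted p = 0.36, 0.245 and 0.686), and it called 0 genes in all, 1865 having an unadjusted p under 0.05. Among the 12 mice whose slopes lay in the range found in both treatments, from -0.142 to 0.147 (8 PBS and 4 HsTX1[R14A]), a comparison added after the data were seen, the values were -0.25, -0.32 and -0.15 (adjusted p = 0.611, 0.495 and 0.828). The removal depends on the length taken for a gene: with the median transcript length, also added after the data were seen, the values were -0.26 for Mt1, -0.38 for Mt2 and -0.57 for Mt3, with adjusted p = 0.0416, 0.0113 and 0.0226. The direction was lower in each of these fits, and whether a difference remained beyond that of other short transcripts depended on the setting.

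**Figure D3:**
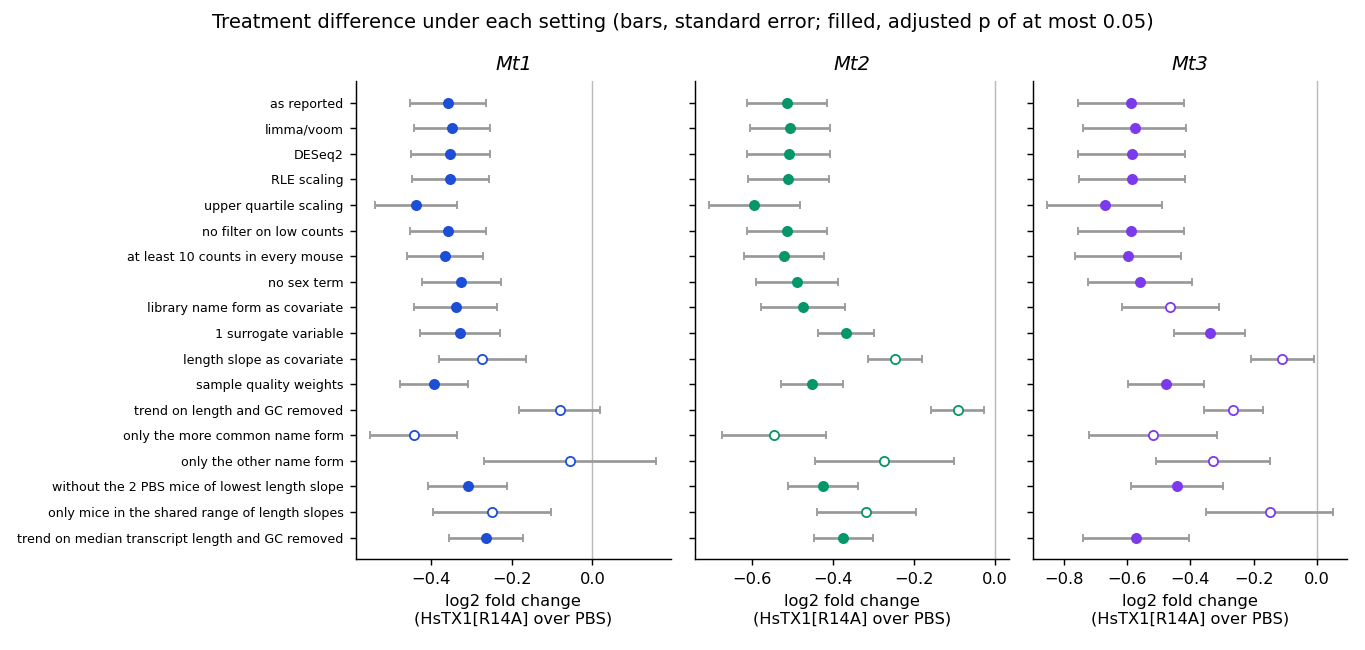
log2 fold change (treated over PBS) for Mt1, Mt2 and Mt3 under each setting, with standard errors; filled points have an adjusted p of at most 0.05. Every estimate shown is below 0, and the open points are those with the length slope as covariate, with the trend on longest transcript length and GC removed, within either name form, within the shared range of slopes and, for Mt3, with the name form as covariate.

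Library name form moved with treatment as well. Within the 15 mice of the more common form the log2 fold changes were -0.44 for Mt1, -0.55 for Mt2 and -0.52 for Mt3 (adjusted p = 0.0563, 0.0563 and 0.0945, edgeR), and the 6 remaining mice gave -0.06, -0.27 and -0.33 (adjusted p = 0.954, 0.855 and 0.855). Mean Mt1 levels in these 6 mice were 191 CPM (2 PBS mice) and 190 CPM (4 treated mice). Mt3 in PBS mice ran from 270.35 to 300.4 CPM in the less common form and from 256 to 619.9 CPM in the more common one.

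The relation to the length slope was also present without treatment. A higher slope means a smaller share for short transcripts, so the level of a short transcript tends to fall with it by construction. A test against no relation therefore does not set the metallothioneins apart from other short transcripts. How closely other short transcripts followed the slope was not tested. Over the 12 PBS mice, the level of Mt3 (log2 CPM) fell with the length slope of its library (Pearson r = -0.893, permutation p = 7e-05, adjusted p = 0.00042; Spearman rho = -0.909, permutation p = 0.00012, adjusted p = 0.00072). Mt2 did so as well (r = -0.859, permutation p = 0.00037, adjusted p = 0.00086; rho = -0.853, permutation p = 0.00084, adjusted p = 0.00168). For Mt1 the relation was weaker and did not pass (r = -0.385, permutation p = 0.218, adjusted p = 0.218; rho = -0.531, permutation p = 0.0796, adjusted p = 0.0796). Adjustment was over 6 relations. Without the 2 mice farthest from the median slope, r was -0.766 for Mt3, -0.727 for Mt2 and -0.21 for Mt1, and in the 10 PBS mice that carry the common name form r was -0.918, -0.85 and -0.333.

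The 3 genes also rose and fell together between PBS mice, and less closely between the 9 treated mice, where r was 0.274 for Mt1 with Mt2, 0.342 for Mt1 with Mt3 and 0.642 for Mt2 with Mt3. The difference between the groups was not tested. In PBS mice Pearson r was 0.722 for Mt1 with Mt2 (permutation p = 0.00885, adjusted p = 0.0133), 0.662 for Mt1 with Mt3 (permutation p = 0.0201, adjusted p = 0.0241) and 0.868 for Mt2 with Mt3 (permutation p = 0.00043, adjusted p = 0.00086). Spearman rho was 0.776, 0.748 and 0.86 (permutation p = 0.00434, 0.00732 and 0.00065; adjusted p = 0.00651, 0.00878 and 0.00168). Without the 2 mice farthest from the median of the first gene, r was 0.589, 0.453 and 0.78, and within the more common name form 0.689, 0.558 and 0.847. Once the length and GC trend was removed, the Mt1 with Mt2 relation held in PBS mice (r = 0.856, permutation p = 0.0003, adjusted p = 0.0018). Its r in the 9 treated mice was 0.412. On this scale the length slope had r = 0.484 with Mt1 and 0.725 with Mt2 in PBS mice. Whether this shared relation to the slope raised the r of Mt1 with Mt2 was not tested. In PBS mice Mt1 with Mt3 gave r = 0.233 (adjusted p = 0.536) and Mt2 with Mt3 gave r = -0.2 (adjusted p = 0.536, both permutation tests). Mt1 and Mt2 thus passed the test on either scale, and both relations of Mt3 passed on the scale that keeps the length trend.

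**Figure D4:**
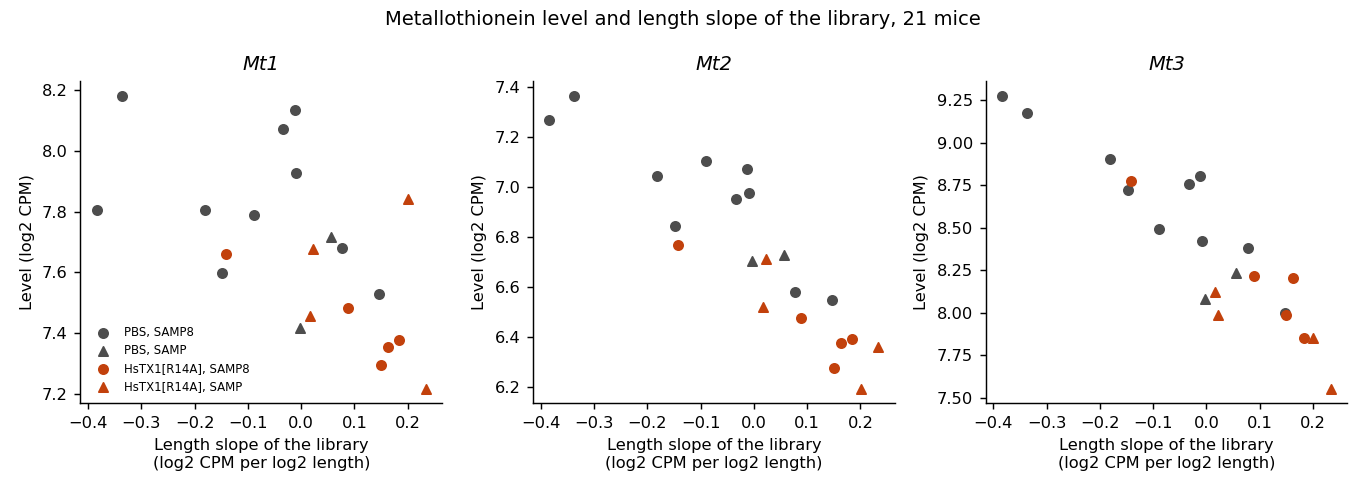
Level of Mt1, Mt2 and Mt3 (log2 CPM) against the length slope of the library (log2 CPM per log2 base of transcript length) in 21 mice, by treatment and name form. Levels of Mt2 and Mt3 are lower where the slope is higher, in the 12 PBS mice (r = -0.859 and -0.893) and in the 9 treated mice (r = -0.883 and -0.855).

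The proportions of the 3 mRNAs within a library, which do not depend on its scaling, did not differ between treatments beyond the spread between mice. The count ratio of Mt2 to Mt1 was 0.551 ± 0.072 (SD, n = 12) with PBS and 0.494 ± 0.0685 (SD, n = 9) with the peptide (exact permutation within sex, two-sided, p = 0.164, adjusted p = 0.246 over 3 ratios). Mt3 to Mt1 was 1.78 ± 0.415 and 1.52 ± 0.346 (exact permutation p = 0.151, adjusted p = 0.246), and Mt3 to Mt2 was 3.22 ± 0.492 and 3.09 ± 0.548 (exact permutation p = 0.433, adjusted p = 0.433). The Mt2 to Mt1 ratio was below the PBS median in 8 of 9 treated mice, and treated male 81, at 0.319, was the lowest of all. No ratio passed the test, so an unequal fall of the 3 genes was not detected.

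Whether the fall differed between the sexes was tested as an interaction. In females the log2 fold changes were -0.44 for Mt1, -0.49 for Mt2 and -0.74 for Mt3, and in males -0.30, -0.53 and -0.49. The female minus male differences were -0.13 (95% interval -0.55 to 0.28), 0.05 (-0.39 to 0.48) and -0.25 (-0.96 to 0.47), each with adjusted p = 1 (edgeR). With 3 treated females, the intervals of Mt1 and Mt3 include sex differences as large as their treatment differences, and that of Mt2 does not. The interaction called 0 genes (0%), with 270 at an unadjusted p under 0.05. Between sexes at equal treatment, the log2 fold changes of female over male were -0.18, -0.16 and -0.15 (adjusted p = 0.446, 0.448 and 0.617, edgeR), in a comparison that called 0.0552% of genes.

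The chromosomal neighbours were too few for their calls to be told from those of all genes. Of 6 tested genes within 250 kb, 0 were called lower and 2 higher, with a median log2 fold change of 0.13, against 16.1% lower and 15.5% higher over all genes. The longest transcripts of these 6 genes have 1952 bases or more, and their median is 3472 bases. Ogfod1, which encodes a ribosomal protein hydroxylase, had a log2 fold change of 0.35 (adjusted p = 0.0163, edgeR), and Herpud1, a gene of the endoplasmic reticulum stress response, 0.17 (adjusted p = 0.0274).

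Of 8 genes in the list of MTF1 and its targets, 2 were higher, 2 lower and 4 not called, with a median log2 fold change of -0.03. With the length and GC trend removed, 0 were higher and 2 lower. Over all genes tested 15.5% were called higher and 16.1% lower, and 8.96% and 6.37% with the trend removed. Mtf1, the zinc sensor itself, was 27.1 ± 3.85 CPM (SD, n = 12) with PBS and 31.7 ± 2.91 CPM (SD, n = 9) with the peptide, a log2 fold change of 0.26 (adjusted p = 0.0212, edgeR), and -0.07 with the trend removed (adjusted p = 0.562). Slc30a1, the zinc exporter of the plasma membrane and like Mt1 a direct MTF1 target, had a log2 fold change of 0.23 (adjusted p = 0.0471), which was 0.14 with the trend removed (adjusted p = 0.243) and kept its call in 7 of 21 fits that left out 1 mouse. Csrp1, a LIM-domain protein gene, and Selenow, which encodes a small selenoprotein, had log2 fold changes of -0.56 and -0.62 (adjusted p = 0.0151 and 0.0196), and of -0.47 and -0.29 with the trend removed (adjusted p = 0.0137 and 0.0497). The longest transcript of Selenow has 736 bases and that of Csrp1 1828.

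Among 22 tested zinc transporters, which move the metal that metallothioneins bind, 6 were higher and 2 lower, with a median of 0.12, and 3 and 1 with the trend removed. Over all genes tested 15.5% were called higher and 16.1% lower, and 8.96% and 6.37% with the trend removed. Slc30a9, a mitochondrial zinc transporter, had a log2 fold change of -0.25 (adjusted p = 0.024, edgeR), or -0.33 with the trend removed (adjusted p = 0.0297). Slc39a3, a zinc importer, had 0.31 (adjusted p = 0.0246), or -0.01 with the trend removed (adjusted p = 0.941). Of 10 copper-handling genes 1 was higher and 2 lower, with a median of -0.21, and 1 and 0 with the trend removed. Atp7a, the copper-exporting ATPase, had a log2 fold change of 0.46 (adjusted p = 0.0243), and Cox17, a copper chaperone of mitochondria, -0.59 (adjusted p = 0.0318), which was -0.55 with the trend removed (adjusted p = 0.052) and 0.06 with the length slope as a covariate (adjusted p = 0.748).

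The lists of the other known inducers were small, and their calls stand beside 16.1% of all genes called lower and 15.5% higher. Of 14 glucocorticoid-induced genes and receptors 1 was higher and 1 lower, with a median of 0.00. Per1, a clock gene that glucocorticoids induce, had a log2 fold change of 0.85 (adjusted p = 0.0196, edgeR), or 0.485 with the trend removed (adjusted p = 0.0182). Nr3c1, the glucocorticoid receptor, had -0.26 (adjusted p = 0.0341), or -0.31 with the trend removed (adjusted p = 0.0402). Of 7 tested genes of STAT3 and reactive astrocytes 1 was higher and 1 lower, with a median of -0.03. Stat3 had a log2 fold change of 0.41 (adjusted p = 0.0285), or 0.07 with the trend removed (adjusted p = 0.382). Gfap, the intermediate filament of astrocytes, went from 320 ± 109 CPM to 214 ± 61 CPM, a log2 fold change of -0.59 (adjusted p = 0.0312), or -0.67 with the trend removed (adjusted p = 0.0265). Of 8 genes of the NRF2 antioxidant response 2 were lower and 0 higher, with a median of -0.13. Estimates were below 0 for 7 of these 8 genes, against 51.4% of all genes tested. Gclm, a subunit of the enzyme that starts glutathione synthesis, had -0.21 (adjusted p = 0.0204), or -0.20 with the trend removed (adjusted p = 0.0289). Nqo1, a quinone reductase, had -0.50 (adjusted p = 0.0309), or -0.22 with the trend removed (adjusted p = 0.203).

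Astrocytes are the main brain source of Mt1 and Mt2, and their markers were called in both directions. Of 15 markers 3 were higher, 4 lower and 8 not called, against 0 higher and 2 lower (Gfap and S100b) with the trend removed. In that fit 6.37% of all genes were called lower and 8.96% higher, and the markers' estimates lay on both sides of 0 with a median of -0.04. With the trend kept, the median log2 fold change of the markers was -0.05. Their summed level ran from 5580 to 7930 CPM in PBS mice and from 5610 to 7910 CPM in treated mice. No astrocyte marker was at 0, the lowest mean being 40.5 CPM in PBS mice. S100b, a calcium-binding protein of astrocytes, had the smallest p-value and fell by 0.72 on the log2 scale (adjusted p = 0.0152, edgeR). Of the markers of other cells, 4 of 8 oligodendrocyte, 3 of 8 microglia and 2 of 6 ependymal markers were lower with 0 higher. Called higher were 1 of 10 neuron and 2 of 8 endothelial markers, and 0 of 6 mural, 0 of 8 choroid plexus and 0 of 5 erythrocyte markers were called. Of all genes tested 16.1% were called lower and 15.5% higher. With the trend removed, 5 oligodendrocyte, 3 microglia and 1 ependymal markers were lower, 1 endothelial marker was higher, and 0 markers of the other 4 lists were called. Summed choroid plexus markers varied from 74.6 to 1150 CPM between PBS mice and from 62.3 to 863 CPM between treated mice. The part of cell makeup in the metallothionein levels was not tested.

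**Figure D5:**
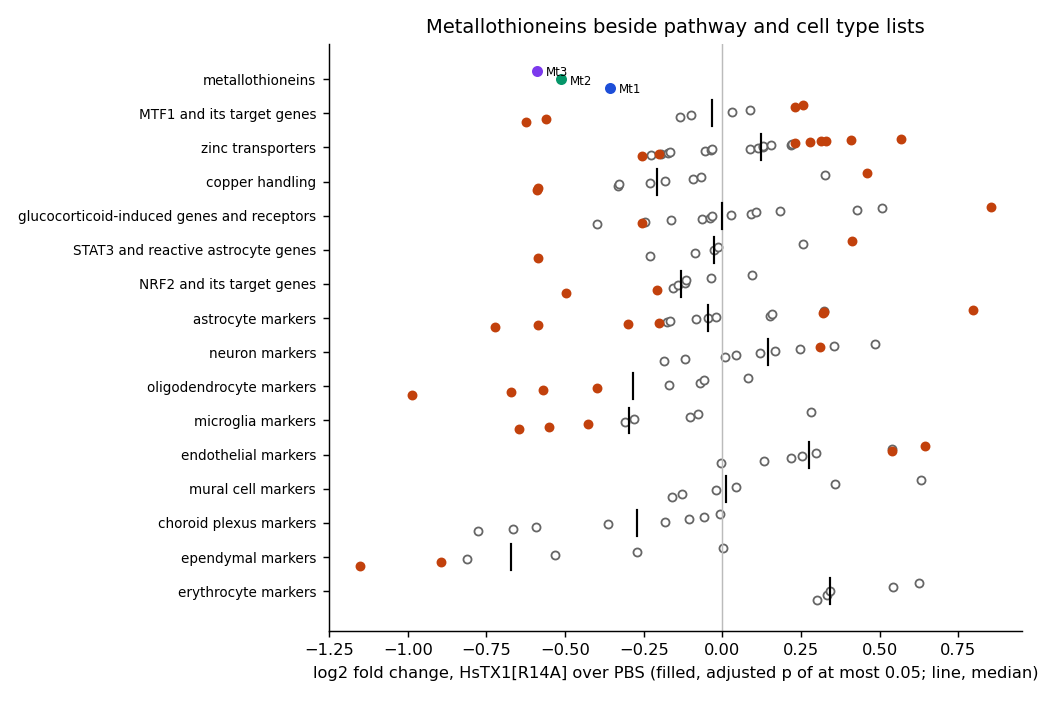
log2 fold change (treated over PBS) of the 3 metallothioneins, of the genes of 6 pathway lists and of the markers of 9 cell types; each point is a gene, filled where the adjusted p is at most 0.05, and the line is the list's median. The metallothioneins lie between -0.59 and -0.36, while the 8 genes of the MTF1 list spread from -0.62 to 0.26.

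Genes whose levels varied most like each metallothionein over the 21 mice were found by the Pearson correlation of log2 CPM after treatment, sex and the length and GC trend were removed, among 13302 genes. For Mt1 these were Gm28661 (r = 0.826) and Zfp358 (0.82), for Mt2 Phka2 (0.819), Igsf9b (0.789) and Ptchd2 (0.784), and for Mt3 Trim8 (0.918), Plekha3 (0.915) and Sh3glb1 (0.882). With the trend kept, the same r was 0.901 for Plekha3 and 0.632 for Sh3glb1 with Mt3, and 0.67 for Gm28661 and 0.199 for Zfp358 with Mt1. It was -0.706 for Phka2, -0.678 for Igsf9b and -0.671 for Ptchd2 with Mt2, and -0.511 for Trim8 with Mt3. The sign of the likeness thus depends on the scale for every gene named for Mt2 and for Trim8. Each point of these correlations is 1 library, with its own depth and length slope.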

How the data were processed

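Whole-brain RNA from 21 SAMP8 mice was sequenced, and the authors aligned reads to GRCm38 with STAR and quantified them with Salmon. The deposited values are estimated counts for 16318 genes, not normalized, and were rounded before testing. The paper's methods name a directional kit and the labels another kit, and whether counting used strand is not given in the sources used here. Mt2 is overlapped by Gm45774 on the other strand. Left out were 53 per-sample columns (other libraries and CPM) and the authors' own fold changes and p-values.

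After filterByExpr and TMM scaling, genes were tested in edgeR 4.0.16 (quasi-likelihood, treatment and sex in the model, FDR threshold 0.05) in R 4.3.3. Standard errors are the log2 fold change over the square root of F. Log2 CPM carries a prior count of 2. The loess trend (span 0.5) used the longest GENCODE transcript and its GC content, known for 16224 genes. Ratios were tested by exact permutation (77616 arrangements), and relations with 100000 resamples. Alternatives included limma 3.58.1, DESeq2 1.42.0 and sva 3.50.0. The procedure was tested on simulated data. The counts simulated for the edgeR test carried no trend on length or GC, so that check does not bear on the difference in length slope between treatments. The calculation of the slope was checked on values with a known slope put in.

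Named were the members, up to 2 genes of smallest p-value per pathway or astrocyte list with Mtf1, Slc30a1, Nr3c1 and Stat3, the called neighbours within 250 kb, and the 3 genes most like each member, of which 1 is not reported here. Members and lists were chosen with earlier results of these data known.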

Additional observations from a re-analysis of the deposited data

Results flagged for a closer look

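Within groups of 6 mice, 2 values lay apart from the rest by the gap to the nearest mouse relative to the range of the group. Mt3 in HsTX1[R14A] male 93 was 438 CPM, against 297 CPM in the next mouse. The Mt2 to Mt1 ratio in HsTX1[R14A] male 81 was 0.319, against 0.494 in the next mouse. In all, 21 sets of 6 values were examined, and chance alone sets apart a value in about 5% of them.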

How the results depend on the processing

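No paired analysis was possible because the groups share no replicate numbers. With 1 mouse left out at a time, log2 fold changes ran from -0.41 to -0.32 for Mt1, from -0.55 to -0.47 for Mt2 and from -0.68 to -0.52 for Mt3, and all 21 fits called each gene. The calls of Mt1, Mt2 and Mt3 ended with the length slope as covariate (-0.27, -0.25 and -0.11), with the trend on length and GC removed (-0.081, -0.092 and -0.26), within the more common name form (-0.44, -0.55 and -0.52), within the other form (-0.055, -0.27 and -0.33) and within the shared range of slopes (-0.25, -0.32 and -0.15). That of Mt3 also ended when name form was a covariate (-0.46; adjusted p = 0.051, edgeR). Beyond the fewer mice within a form or range, the cause was not tested.

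The number of genes called, 5144, became 2984 without the sex term, 1999 with the name form as covariate, 2110 with 1 surrogate variable, 2499 with the trend removed and 2887 without PBS female 103 and male 90. It was 0 with the slope as covariate (1865 at an unadjusted p under 0.05), within the common form (5797), within the other form (532) and within the shared range (1525). Leaving out 1 mouse gave 2289 (without PBS male 90) to 6614 genes, with 3332, 3005, 3263 and 3121 without HsTX1[R14A] mice 71, 98, 81 and 88.

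The Mt3 sex effect was 0.068 with the slope as covariate. The Mt2 interaction, 0.05, ran from -0.033 (without PBS male 90) to 0.14 with 1 mouse left out, was -0.01 without PBS female 84 or HsTX1[R14A] male 81, and was -0.005 without PBS female 85. The log2 difference of the Mt2 to Mt1 ratio, -0.14, was 0.012 with the trend removed, and that of Mt3 to Mt2, -0.09, was 0.014 within the common form. Relations in PBS mice with the trend removed had r of 0.233 (Mt1 with Mt3), -0.2 (Mt2 with Mt3), and 0.484, 0.725 and -0.524 (slope with Mt1, Mt2 and Mt3). Per kilobase, the log2 level of Mt1 over Mt2 was -0.15 by longest and 0.45 by median transcript, and that of Mt3 over Mt1 1.72 and 1.11.

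Other named genes changed sign as follows: Mtf1 (-0.073) and Slc39a3 (-0.009) with the trend removed, Slc39a3 (-0.052) and Gclm (0.01) with the trend on median length removed, Cox17 (0.06) with the slope as covariate and Nr3c1 (0.072) within the shared range. With 1 mouse left out, 9 of these 17 genes kept their call in all 21 fits. PBS male 90 ended the most calls, those of Cox17, Gfap, Herpud1, Nqo1, Nr3c1, Slc30a1, Slc30a9 and Stat3, and Slc30a1 kept its call in 7 of 21 fits.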
